A study of Mus musculus with 8 samples.

Results

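The AP-1 subunits of the Fos and Jun families were examined in AtT20 cells incubated with HX630. They are 7 genes, Fos, Fosb, Fosl1, Fosl2, Jun, Junb and Jund, out of 19751 gene symbols on the array. They were chosen by family membership, with earlier results of these data known. The search through the RefSeq accession of each probe gave 8 probes out of 39429. AtT20 is a mouse corticotroph tumor line of the pituitary that secretes ACTH. HX630 is a synthetic compound that activates all retinoid X receptors (RXRs). The study compared 4 control samples with 4 samples given 10 μM HX630, all kept for 48 hr in DMEM with 1% stripped FBS. The methods state that HX630 was dissolved in DMSO and diluted to a fixed final DMSO concentration. The labels describe the control only as incubated without HX630, and whether these samples received DMSO is not stated. All samples come from 1 cell line, and the labels name no genetic change in either group.

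AP-1 is a dimeric transcription factor. Fos proteins do not form stable dimers with each other and bind DNA as partners of Jun proteins, whereas Jun proteins also pair with each other. Fos and Jun are immediate early genes, which growth factors, cAMP and calcium switch on within minutes through kinases that act on factors already bound at their promoters, and in corticotroph cells AP-1 is one of the factors known to act on the Pomc gene.

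The sequence just upstream of the start site is shown for 5 members because it is part of the stretch through which such factors act. Both strongly changed and little changed members are among the 5. Each line gives the 120 bases before the start site in the RefSeq annotation of GRCm38.p6, 5′ to 3′ on the strand of the gene. Capitals mark matches, on either strand, to the cAMP response element core (TGACG), the variant AP-1 site of Jun (TGACATCA), the GC box (GGGCGG, printed CCGCCC where it lies on the other strand), the TATA box (TATAAA) and the MEF2 box.
Fos (chr12:85473770-85473889, plus strand): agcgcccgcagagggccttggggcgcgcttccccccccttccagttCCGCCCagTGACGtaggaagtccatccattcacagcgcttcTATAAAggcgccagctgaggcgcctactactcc
Fosb (chr7:19310046-19310165, minus strand): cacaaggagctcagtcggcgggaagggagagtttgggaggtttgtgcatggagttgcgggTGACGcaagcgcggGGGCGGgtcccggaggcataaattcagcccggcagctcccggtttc
Fosl2 (chr5:32136352-32136471, plus strand): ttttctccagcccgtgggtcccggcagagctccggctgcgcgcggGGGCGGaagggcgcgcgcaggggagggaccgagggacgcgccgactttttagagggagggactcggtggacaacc
Jun (chr4:95052223-95052342, minus strand): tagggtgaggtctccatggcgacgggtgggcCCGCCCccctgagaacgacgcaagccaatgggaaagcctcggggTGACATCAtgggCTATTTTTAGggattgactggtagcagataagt
Junb (chr8:84978749-84978868, minus strand): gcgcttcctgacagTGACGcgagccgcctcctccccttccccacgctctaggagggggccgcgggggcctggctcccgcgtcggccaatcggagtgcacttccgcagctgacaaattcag

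In the 250 bases before the start site, TGACG was found in Fos, Fosb and Junb, and in 17.8% of all 32851 windows of that length. In Fos it lay 129 to 125 and again 66 to 62 bases before the start site. TGACATCA and a MEF2 box, which lay 45 to 38 and 33 to 24 bases before the start site, were found in Jun alone among the members, and in 2.93% and 2.92% of all windows. The GC box was present in Fos, Fosb, Fosl2 and Jun (32.7% of all windows), and TATAAA in Fos (12.4%). Within these 250 bases no member with a window had a match to TGACGTCA (1.55% of all windows, and a sequence that contains TGACG). The same held for the common AP-1 site TGANTCA (6.75%), the CArG box (1.47%) and the nuclear receptor half-site AGGTCA (14%). Sequence further upstream was not searched, so sites beyond the window would be missed. The window of Jund held none of these motifs, and the table holds no window for Fosl1. These matches describe the letters of the windows and were not measured as binding sites.

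Before the members are described, a few facts of the arrays bear on all values. A level is the log2 processed signal of a probe minus that of the 75th percentile of its array, so that 0 stands for the 75th percentile. The control samples lay together on 1 slide and the HX630 samples on another, scanned separately, and the effect of treatment cannot be told apart from that of slide or scan. The 75th percentile itself was an intensity of 1335 to 1863 on control and 1803 to 1899 on HX630 arrays. Of the 7 corticotroph markers, 6 were well above background on all 8 arrays, while Avpr1b, the vasopressin receptor of corticotrophs, was so on none. Of 8 markers of other pituitary cells, 2 (Gh and Lhb) were well above background on all arrays and Prl and Tshb on none. Of 7 markers of fibroblasts, endothelium and blood, 3 (Col1a2, Pecam1 and Ptprc) were so on all and Pdgfra, Cdh5 and Lyz2 on none. In units of the 75th percentile, the corticotroph markers summed to 300.7 to 375.7 on control and 217.6 to 227.8 on HX630 arrays, the other pituitary markers to 0.155 to 0.293 against 0.196 to 0.227, and the third list to 0.306 to 0.343 against 0.237 to 0.281. In the corticotroph sum, which Pomc and Pcsk1 dominate, Pomc was lower (-0.45, not called) and Pcsk1 was called lower (-2.06), whereas Neurod1 (0.72) and Crhr1 (1.11) were called higher. In each of the other lists 1 gene was called lower, Gh (-0.79) and Pecam1 (-0.59), and none higher. The part of these shifts in the results below was not tested.

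All 4 members of the Fos family were lower in HX630-treated cells, whereas no Jun family member passed both thresholds, which were 0.01 for the adjusted p and 1.5 for the fold change. The 4 Fos family genes fell to between 17.3% and 60.9% of the control, with Fos the most and Fosb the least. All 7 members were tested, and 6 of them, all except Fosl1, were well above background on all 8 arrays. Fosl1 met the filter for testing through the control arrays, where it was higher, so its call is not independent of that filter. Of the 15319 genes tested, 11.2% were called lower and 8.38% higher by limma at these thresholds. No member was called higher, none rose at an unadjusted p below 0.05 either, and the methods' t-test called none higher. In bulk RNA of a culture, fewer expressing cells and less RNA per cell cannot be told apart.

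For 6 of the 7 members every HX630 array lay below every control array, and for Junb the groups overlapped. Such a complete separation downwards was seen in 32.8% of all genes, and in either direction in 61.5%. Groups that do not overlap were thus common among the genes on these arrays.

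**Figure D1:**
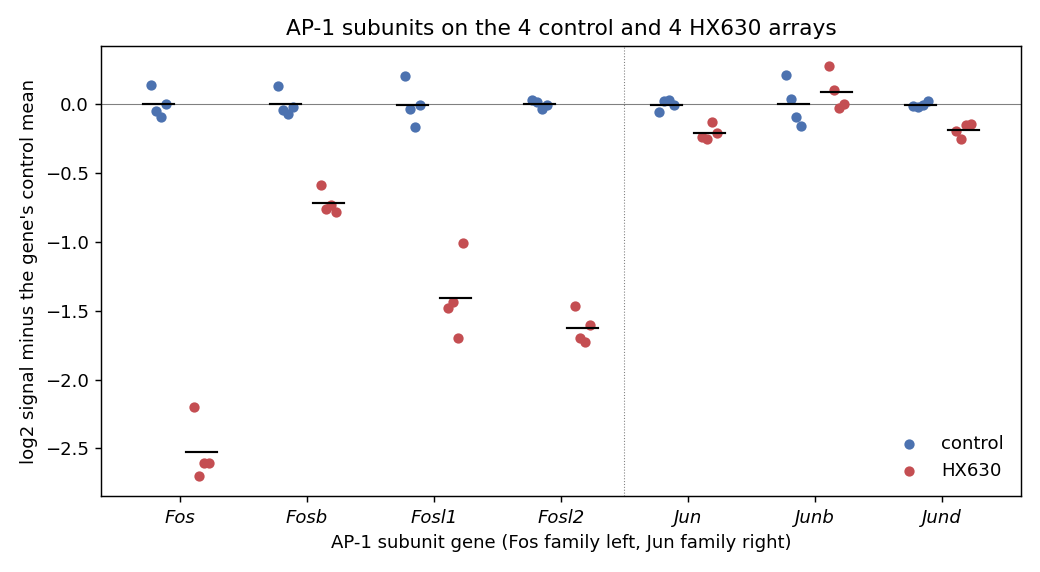
Level of each AP-1 subunit on each array, as log2 signal minus the control mean of the same gene (vertical axis), with the genes on the horizontal axis. Points are single arrays (4 control, 4 HX630) and bars are group means. The HX630 points of the Fos family lie well below the control points, at -2.53 (Fos) to -0.72 (Fosb) in the means, while those of Jun and Jund lie slightly below, under 75th percentile scaling but not under spike-in scaling, and those of Junb overlap.

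Fos, which encodes c-Fos and was the founding member of the family, changed most among the members. The level of Fos was -0.90, -1.09, -1.13 and -1.04 on the control arrays and -3.24, -3.74, -3.65 and -3.65 on the HX630 arrays. As intensities before scaling these were 638 to 850 and 138 to 191. The groups were far apart, and HX630 replicate 1 was the highest of its group. The mean fell from -1.04 ± 0.10 (SD, n = 4) to -3.57 ± 0.22 (SD, n = 4). The log2 fold change was -2.53 (95% confidence interval -2.79 to -2.27, limma adjusted p = 9.80e-07). Of the 15319 genes, 0.594% had a lower fold change. Without HX630 replicate 1 the fold change was -2.64.

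The array carries 10 spots of the Fos probe, which allow the error of the measurement within an array to be seen. The level was lower with HX630 at all 10 spot positions, by -2.80 to -2.12. The single spots ranged from -1.25 to -0.75 on the control arrays and from -3.86 to -3.14 on the HX630 arrays. The median SD between spots of 1 array was 0.084, against 0.10 between control arrays and 0.22 between HX630 arrays. Feature Extraction had marked 3 of the Fos spots as outliers, 1 on each of HX630 replicates 2, 3 and 4, and these were left out of the values above.

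**Figure D2:**
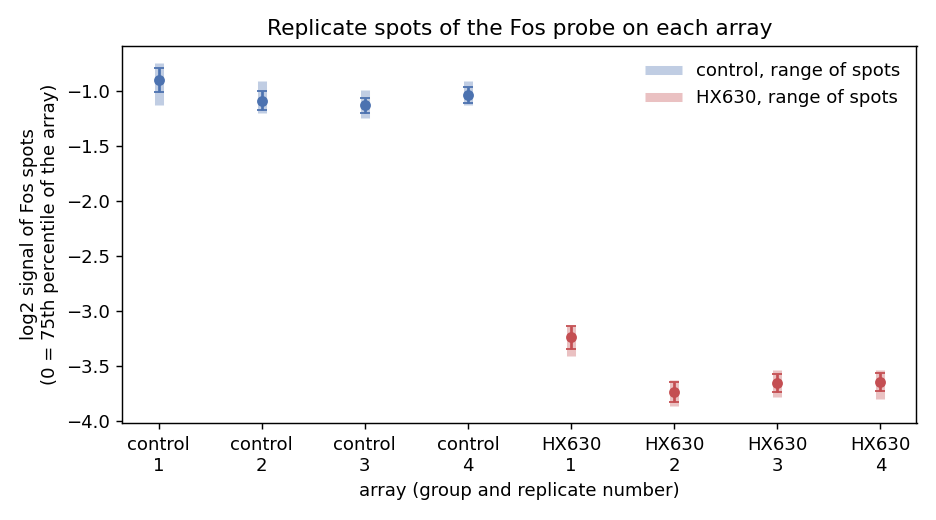
Replicate spots of the Fos probe, as log2 signal relative to the 75th percentile of the array (vertical axis), on each of the 8 arrays (horizontal axis). Points are array means, thin bars the SD between spots and broad bars the range of spots. The highest HX630 spot, at -3.14, lies below the lowest control spot, at -1.25.

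Fosl2, which encodes Fra-2, a Fos protein that lacks the strong activation domain of c-Fos, showed the next largest fall. It has a pair of probes. The brighter probe gave 1.15, 1.13, 1.08 and 1.11 on the control arrays and -0.35, -0.58, -0.61 and -0.49 on the HX630 arrays. These groups were narrow and widely separated. Fosl2 fell by 1.62 on the log2 scale (SE 0.060, limma adjusted p = 4.66e-07), to 32.4% of the control.

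The dimmer Fosl2 probe gave -5.33, -5.45, -5.66 and -5.25 on the control arrays and -7.12, -6.51, -6.44 and -6.57 on the HX630 arrays. It was well above background on 4 control arrays and 3 HX630 arrays. Its fold change was -1.24 (SE 0.16, limma adjusted p = 3.36e-04), which passed both thresholds in the same direction. The groups did not overlap on either probe.

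Fosl1 encodes Fra-1, the other Fos protein without that domain. Its level was -5.31, -5.55, -5.68 and -5.52 on the control arrays and -6.99, -6.95, -7.21 and -6.52 on the HX630 arrays. This is a dim probe, with intensities of 29 to 36.8 on the control and 12.3 to 20.8 on the HX630 arrays. It was well above background on all 4 control arrays but on only 1 of 4 HX630 arrays. The fold change of Fosl1 was -1.40 (SE 0.15, limma adjusted p = 1.03e-04), which was -0.97 after normexp background correction and passed both thresholds there too.

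Fosb encodes FosB and, by alternative splicing, the shorter and longer lived ΔFosB. The array has 1 probe for Fosb, and which of the isoforms it detects was not determined. Its level was -2.58, -2.75, -2.78 and -2.73 on the control arrays and -3.30, -3.47, -3.44 and -3.49 on the HX630 arrays. In both groups replicate 1 was the highest, and the groups did not overlap. Fosb fell by 0.72 (SE 0.061, limma adjusted p = 3.00e-05), to 60.9% of the control, and by 0.50 when arrays were scaled to the spike-in probes, which does not pass the fold change threshold.

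Jun, which encodes c-Jun, the main partner of c-Fos, changed little. Its level was 2.51, 2.59, 2.60 and 2.56 on the control arrays and 2.33, 2.32, 2.44 and 2.36 on the HX630 arrays. The HX630 arrays lay just below the control arrays. The fold change was -0.21 (SE 0.040, limma adjusted p = 0.00275), short of the fold change threshold, and 0.011 (adjusted p = 0.879) under spike-in scaling. Over the alternatives that adjust p, the adjusted p of Jun ranged from 0.000566 to 0.879.

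Jund encodes JunD, the Jun protein that is generally present in resting cells. Its level was 4.92, 4.91, 4.93 and 4.96 on the control arrays and 4.74, 4.68, 4.78 and 4.79 on the HX630 arrays. These values were tight, and the groups did not overlap. The fold change was -0.19 (SE 0.037, limma adjusted p = 0.00315), 88.0% of the control, and 0.034 (adjusted p = 0.658) under spike-in scaling. Its adjusted p ranged from 0.000919 to 0.658 over the alternatives that adjust p. No probe of a member was saturated.

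Junb encodes JunB, which can oppose c-Jun at some promoters. Its level was -3.57, -3.75, -3.88 and -3.94 on the control arrays and -3.51, -3.68, -3.81 and -3.78 on the HX630 arrays. The groups overlapped, with replicate 1 the highest in each. The fold change was 0.09 (95% confidence interval -0.14 to 0.32, limma adjusted p = 0.465) and turned to -0.11 (adjusted p = 0.509) after normexp background correction, so that neither a rise nor a fall of Junb was detectable. The adjusted p of Junb ranged from 0.0102 (spike-in scaling, fold change 0.31) to 0.819 over the alternatives.

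The scaling of the arrays moved all genes together. The median fold change of all genes was -0.03 with the 75th percentile and 0.18 with the spike-in probes, a shift of 0.22, and the calls over all genes went from 1709 lower and 1284 higher to 1037 lower and 2479 higher. Because both scalings subtract a single value per array, fold changes relative to that median cannot differ between them. They were -2.50 for Fos, -1.59 for Fosl2, -1.37 for Fosl1, -0.68 for Fosb, -0.17 for Jun, -0.15 for Jund and 0.12 for Junb. The sign of Jun and Jund, whose changes are smaller than the shift, thus differed between these scalings, while the 4 Fos family genes were lower under both.

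**Figure D3:**
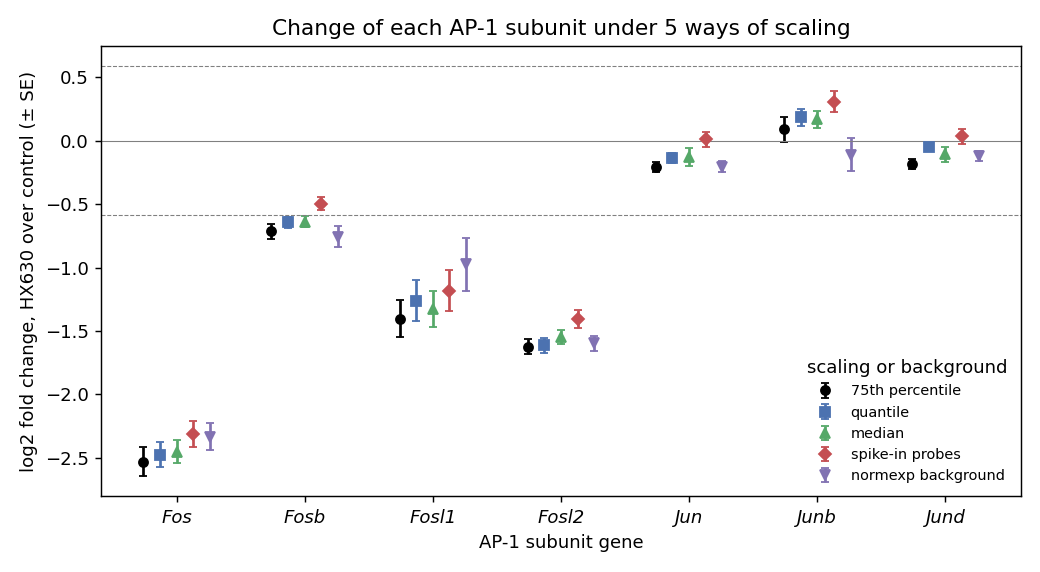
Log2 fold change, HX630 over control, of each AP-1 subunit (horizontal axis) under 5 ways of scaling or background correction (symbols), with SE as error bars. Dashed lines mark a fold change of 1.5. The Fos family genes lie below 0 under all 5, Jun and Jund turn above 0 with the spike-in probes (0.011 and 0.034), and Junb turns below 0 with normexp (-0.11).

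Whether members changed by different amounts was tested within each array, where the scaling cancels. Each of the 21 pairs of members was compared with a two-sided exact permutation test over the 70 regroupings of the 8 arrays, adjusted over the 21 pairs. The smallest p this design allows is 0.0286. In all 12 pairs of a Fos with a Jun family gene the changes differed, by 0.51 (Fosb and Jun) to 2.62 (Fos and Junb), each with an exact p of 0.0286 and an adjusted p of 0.0353. The pairs share genes and are not independent of each other. How often pairs of other genes on these arrays pass the same test was not computed.

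Within the Fos family 5 of 6 pairs differed. The change of Fos exceeded that of Fosl2 by 0.91 (SE 0.074), that of Fosl1 by 1.13 (SE 0.20) and that of Fosb by 1.81 (SE 0.072). Fosb changed less than Fosl2 by 0.91 (SE 0.049). Fosb changed less than Fosl1 by 0.69 (SE 0.17), but this difference was 0.22 (SE 0.20, exact permutation p = 0.343) after normexp background correction. When any 1 control array was left out it no longer passed (exact permutation p = 0.0571, difference 0.66 to 0.72), although the groups of remaining arrays still did not overlap. The neighbours Fosl1 and Fosl2 did not differ beyond the spread of the arrays, with a difference of 0.22 (SE 0.15, exact permutation p = 0.20, adjusted p = 0.21). After normexp it was 0.62 (SE 0.22, exact permutation p = 0.0571), and the size of each difference with Fosl1 is limited by its probe, well above background on 1 of 4 HX630 arrays. The differences of Fosl1 from Jun, Jund and Junb went from -1.20, -1.22 and -1.49 to -0.77, -0.85 and -0.86 with normexp and still passed.

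Within the Jun family none of the 3 pairs passed. Jun minus Jund was -0.022 (SE 0.032, exact permutation p = 0.486), and -0.083 after normexp, where the pair passed (exact permutation p = 0.0286). Jun and Junb differed by 0.30 (SE 0.13, exact permutation p = 0.0857), and Junb and Jund by 0.27 (SE 0.12, exact permutation p = 0.114), or 0.35 without control replicate 1, where the pair passed (exact permutation p = 0.0286). With 4 arrays a group, these p-values do not show that the changes were alike.

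**Figure D4:**
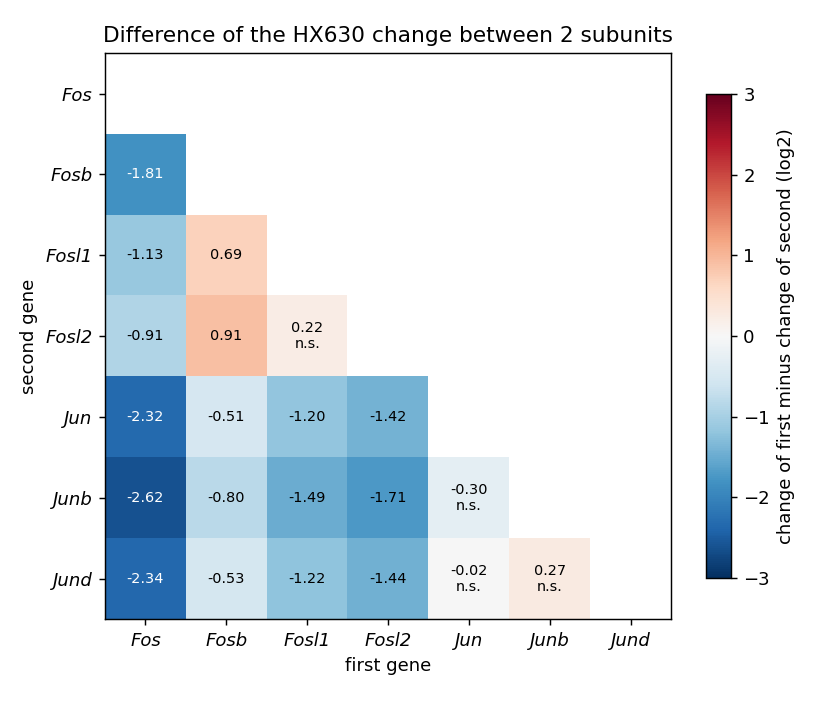
Difference between the log2 fold changes of a pair of AP-1 subunits, as the change of the gene on the horizontal axis minus that of the gene on the vertical axis. Blue marks a more negative change of the first gene, and n.s. marks an adjusted exact permutation p above 0.05. All squares that join a Fos with a Jun family gene are blue, from -0.51 to -2.62, and the 3 squares within the Jun family are n.s.

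The other genes of the pathway were taken from 5 lists by their role, chosen with earlier results of these data known. Their counts are to be read against the shares of all tested genes. Of these, 19.5% were called in either direction (11.2% lower and 8.38% higher), with a median fold change of -0.03. Changes of a list are descriptions, with no test of the list.

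Other basic leucine zipper proteins also pair with Fos or Jun proteins. Of 13 such genes 10 were tested, of which 2 were called lower and none higher (11.2% and 8.38% of all genes). At an unadjusted limma p below 0.05, 9 were lower and none higher (36.4% and 31.6% of all genes). Maff, a small Maf protein without an activation domain, fell by 1.85 (SE 0.056, limma adjusted p = 2.29e-07). Atf3, a stress-induced factor that binds DNA with Jun proteins, fell by 1.5 (SE 0.056, limma adjusted p = 4.98e-07). Both were called under all 24 alternatives. The median of the 10 genes was -0.50, and in 8 of them all HX630 arrays lay below all control arrays, as in 32.8% of all genes. Batf and Maf were not well above background on any array, and Atf7 was not matched to a probe.

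All 18 genes of the kinases upstream were tested, and 2 were called higher and 1 lower, with a median of 0.08. Rps6ka5, which encodes MSK1, a kinase of CREB and histone H3, had a fold change of 0.99 (SE 0.041, limma adjusted p = 7.36e-07). Mapk3, which encodes ERK1, had a fold change of 0.82 (SE 0.041, limma adjusted p = 1.77e-06), and its other probe gave 0.76 and was called as well. Rps6ka2, a ribosomal S6 kinase that ERK activates, fell by 1.12 (SE 0.057, limma adjusted p = 1.94e-06). With the spike-in probes 5 kinases were called higher, and without control replicate 3 there were 2 called lower.

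Among the factors that bind the promoters of Fos and Jun genes, 14 of 15 were tested, with 2 called lower, 1 higher and a median of -0.06. Crem, a CREB family gene whose products act at cAMP response elements, ranged from -0.89 to -0.78 on the control and from -3.01 to -2.95 on the HX630 arrays. Crem fell by 2.13 (SE 0.037, limma adjusted p = 5.71e-08), and its dimmer probe fell by 1.15. Mef2d, which binds MEF2 boxes such as that of Jun printed above, fell by 0.99 (SE 0.053, limma adjusted p = 2.43e-06), and by 0.79 on its other probe. Elk3, a ternary complex factor that works with serum response factor, had a fold change of 0.68 (SE 0.048, limma adjusted p = 1.10e-05). Its 2 other probes gave 0.55 and 0.38 and were not called, and neither was the mean of its probes. Mef2c was not well above background on any array.

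Regulators of the stability or activity of Fos and Jun mRNA and protein gave no call. Of 13 genes 11 were tested, with a median of 0.14, and limma called 0 in either direction. At an unadjusted p below 0.05, 7 were higher and 2 lower (31.6% and 36.4% of all genes tested), and the methods' t-test also called 0. One of the dimmer probes of Gsk3b, a kinase that marks c-Jun for turnover, gave 0.75 and was called, whereas its brightest gave 0.41 and was not. Zfp36, whose product promotes decay of AU-rich mRNAs such as that of Fos, was not well above background on any array, and Zfp36l1 was too dim to be tested.

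Of 28 genes with well known AP-1 sites, listed from general knowledge, 16 were tested. Of these, 5 were called lower and 2 higher (11.2% and 8.38% of all genes), with a median of -0.29. Gem, a small GTP-binding protein, fell by 1.98 (SE 0.086, limma adjusted p = 9.22e-07), and by 1.87 on its other probe. Mt2, a metallothionein that binds zinc, fell by 1.72 (SE 0.043, limma adjusted p = 1.22e-07). Mmp10, a matrix metalloproteinase, fell by 1.29 (SE 0.22, limma adjusted p = 0.00136) and was well above background on 4 control but 2 HX630 arrays. It thus met the filter for testing through the control arrays, and the filter on all arrays removes it. Mt1, the companion metallothionein gene of Mt2, fell by 1.23 (SE 0.046, limma adjusted p = 4.92e-07). Hmox1, the heme oxygenase named here after its value was seen, fell by 0.86 (SE 0.11, limma adjusted p = 2.58e-04).

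The 2 target genes called higher were Ezr and Penk, which are named here after their values were seen. Ezr, which encodes the membrane linker ezrin, had a fold change of 0.61 (SE 0.036, limma adjusted p = 3.83e-06). Penk, which encodes proenkephalin, had a fold change of 0.69 (SE 0.15, limma adjusted p = 0.00509) but was well above background on only 1 control array. It met the filter for testing through the HX630 arrays. Penk was called under 13 of 23 alternatives, and its fold change was -0.05 after normexp background correction. Without control replicates 2, 3 or 4, or without any 1 of the HX630 arrays, 1 target gene was called higher. The 12 genes not tested were Mmp3, Mmp9, Mmp13, Plau, Spp1, Il6, Csf2, Gja1 and Areg, well above background on no array, and Vim, Lif and Nts, on 1 or 2.

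**Figure D5:**
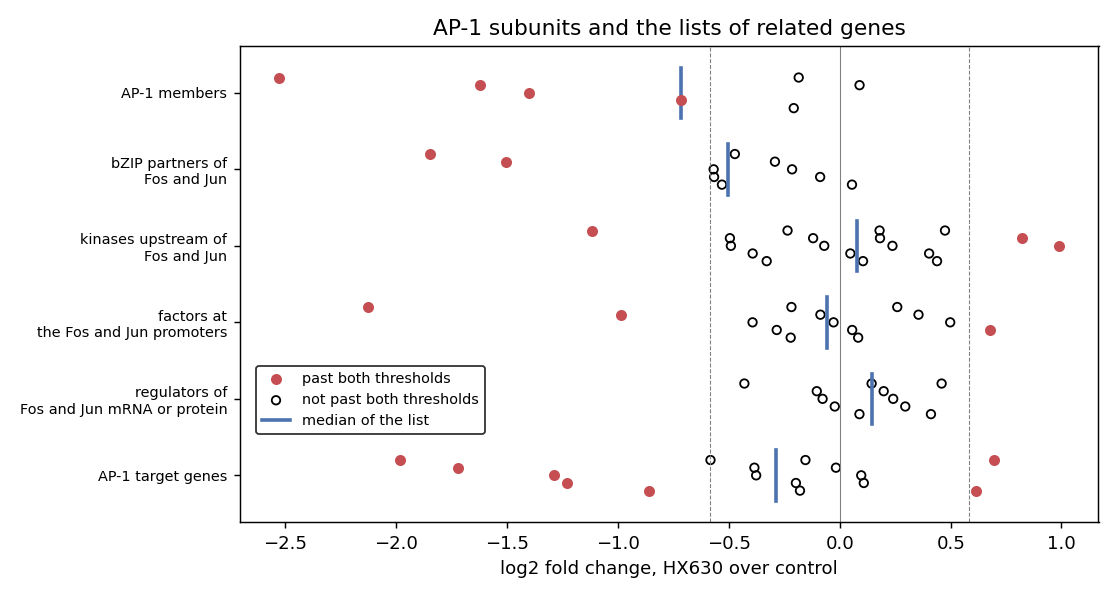
Log2 fold change, HX630 over control (horizontal axis), of the tested genes of each list (vertical axis), each point 1 gene. Filled points passed both thresholds, with that on the fold change drawn as dashed lines, and vertical bars are list medians. The medians are -0.72 for the AP-1 subunits, -0.50 for their partners and -0.29 for the target genes, and lie between -0.06 and 0.14 for the other 3 lists, against -0.03 for all genes.

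For each Fos family gene, the 3 genes whose array values lay nearest were found among 15315 genes, by Euclidean distance over the 8 arrays after centring each gene on its control mean. Nearest to Fos were Pdgfc, a platelet-derived growth factor (distance 0.252), Cx3cl1, the chemokine fractalkine (0.284), and Pthlh, parathyroid hormone-like hormone (0.305). Nearest to Fosl2 were Hsd3b7, an enzyme of bile acid synthesis (0.113), Ctsl, the protease cathepsin L (0.127), and Atp1b1, a subunit of the sodium pump (0.143). Nearest to Fosb were Astn2 (0.0595), Nolc1, a nucleolar protein (0.108), and Gusb, the lysosomal β-glucuronidase (0.111). Nearest to Fosl1 were Vmn1r199, a vomeronasal receptor gene (0.329), Igsf11 (0.464) and Prom2 (0.466). The distances of Fosl1 were the largest of the 4, and its probe was well above background on 1 of 4 HX630 arrays. The likeness is a description over 8 arrays in 2 groups.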

How the data were processed

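RNA of 4 control and 4 HX630-treated AtT20 samples was hybridized to 1-color Agilent arrays, 1 per sample. For each array the authors deposited spot intensities processed with Feature Extraction 10.7.3.1 (named in the submitters' processing notes), which subtracts background. They also deposited a table of log2 values from GeneSpring, which matched the log2 intensity minus the 75th percentile of the array. In R 4.3.3, control and outlier spots were left out, spots of a probe were averaged, and the log2 intensity was reduced by the 75th percentile of the array. The 28552 probes well above background on at least 4 of 8 arrays were tested with limma 3.58.1 (lmFit, eBayes), with Benjamini-Hochberg adjustment over all of them. Calls required a fold change over 1.5 at an adjusted p under 0.01. The brightest tested probe represented a gene. The code was tested on simulated data.

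Probes were named through RefSeq accessions in a table on GRCm38.p6, which matched 26055 of 39429 probes. Promoter windows came from RefSeq on the same assembly.

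All members are named, with the 4 called genes of largest change in each other list (or all, where fewer), and 3 more target genes named after their values were seen, those not above background, and the 3 nearest genes of each called member. The members and lists were chosen with earlier results of these data known. The labels do not say whether replicates were separate cultures, so p-values measure only the spread between these samples, which may be technical. The number of arrays limits the precision. Replicate numbers were not used as pairs. Alternatives were other scalings, background correction (normexp, offset 16, on median spot intensities), filters, probe choice, tests, thresholds, the replicate block and each array left out. PCR, reporter, chromatin and animal experiments are not analysed here, and 2 genes of the lists are not reported here.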

Additional observations from a re-analysis of the deposited data

Results flagged for a closer look

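Of 70 groups of 4 arrays examined, over the 35 probes of the members, their nearest genes and the called genes of the lists, 4 held an array far from the other 3, where chance gives about 1 in 20 groups, or 3.5. The measure is the gap to the nearest other array divided by the range of the group. HX630 replicate 1 stood above the other HX630 arrays for Pthlh (gap 0.883 of the range, level -2.01 against a mean of -2.45) and Cx3cl1 (0.837, -3.21 against -3.39). The same array was the highest for Fos, with a gap of 0.815, just short of the critical value of Dixon's test for 4 samples. Both genes were picked as nearest to Fos over these arrays, so that they are not independent of Fos or of each other, and the number expected by chance does not allow for this. Control replicate 1 stood above the other controls for Vmn1r199 (0.991, -4.24 against -4.59), and control replicate 2 stood below them for Hmox1 (0.949, 1.60 against 2.04). Whether these arrays share a technical feature was not tested.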

How the results depend on the processing

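Over 24 alternatives limma or the methods' t-test called 3 to 6 AP-1 members lower and 0 higher. The fold change of Fos ranged from -2.64 to -2.31, of Fosl2 from -1.68 to -1.41 and of Fosl1 from -1.54 to -0.97 (23 alternatives, since the filter on all 8 arrays removes it), each called throughout. Fosb was not called with the spike-in probes (-0.50) or at a fold change above 2. Jun and Jund reversed with the spike-in probes (0.011 and 0.034), which moved the median of all genes by 0.22. Since all genes moved together, Jun and Jund relative to that median were by arithmetic -0.17 and -0.15, as in the main setting. Relative to the median of all genes they were -0.17 and -0.076 with quantile normalization, and -0.12 and -0.034 with normexp. Junb reversed with normexp (-0.11), and the cause was not tested. Without a fold change threshold Jun (-0.21) and Jund (-0.19) were called, as were 6 partners lower, 8 kinases higher and 5 lower, 4 promoter factors higher and 4 lower, 5 regulators higher and 1 lower, and 8 target genes lower, where 24.0% of all genes were called higher and 27.2% lower. At a fold change above 2, 0 kinases, 0 promoter factors and 0 target genes were called higher and 1 promoter factor lower. With the spike-in probes 5 kinases, 2 promoter factors and 2 regulators were called higher, and with normexp 2 promoter factors, 1 regulator and 1 target gene. The mean of all probes left 0 promoter factors higher, and 1 target gene was called higher with the filter on all arrays or the adjusted t-test. Leaving out 1 array gave 1 to 2 kinases lower and 1 to 2 target genes higher, and 16 to 17 differing pairs of members.

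Same-numbered samples did not deviate together throughout (correlations 0.52, -0.0093, 0.24 and 0.38), so the numbers were not taken as pairs. With the replicate number as a block, 4 members were again called lower and 0 higher, and over all genes 1779 lower and 1334 higher. Dim probes, Fosl1 above all, limit precision here.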
